A study of Mus musculus with 8 samples.

Results

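The enzymes that build cholesterol and fatty acids, with the proteins that control them, were examined in the resting and proliferative zones of the mouse growth plate. The set comprised 35 genes listed by name for their roles, and 33 of them had a row in the authors' gene table of 11840 genes. The other 2, *Idi1* and *Tm7sf2*, had 1 and 6 counts over all libraries and are not described further. The 33 genes fell into 16 sterol enzymes, 11 genes of fatty acid synthesis, elongation and desaturation (called the fatty acid branch here), 3 regulators and 3 acyl-CoA synthetases.

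RNA was taken by laser microdissection from 4 Axin2CreERT2;R26RTdTomato mice. In these mice a tamoxifen-dependent Cre recombinase, expressed from *Axin2*, switches on a red fluorescent reporter in *Axin2*-expressing cells and in the cells that descend from them. All 4 mice carried both alleles, received 3 daily doses of tamoxifen from P23 (postnatal day 23) and were killed at P30, so genotype, age and treatment did not differ between the groups. Reporter-positive chondrocytes of the resting zone and unlabeled, flattened chondrocytes of the proliferative zone were cut from 8 μm frozen sections of the same animal, which gave 1 library per zone and mouse (n = 4 per zone). By the labels, mice 1 and 2 were males and the other two females. The zones thus differed in position, cell shape and reporter label together, and these cannot be told apart.

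Sterol synthesis starts from acetyl-CoA and passes through mevalonate, farnesyl diphosphate and squalene to lanosterol, which is then trimmed to cholesterol. Fatty acid synthesis uses the same precursor to make palmitate, which elongases lengthen and desaturases render unsaturated. Both branches are driven by the SREBP transcription factors, encoded by *Srebf1* and *Srebf2*. When sterols are plentiful, INSIG proteins hold these factors in the endoplasmic reticulum. Inherited defects of late sterol enzymes, among them EBP, NSDHL and DHCR7, cause skeletal malformations, and in chondrocytes cholesterol is needed for hedgehog signaling.

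Counts on genes totalled 192882 to 462044 in the resting libraries and 249284 to 631474 in the proliferative libraries. Levels are given as CPM, counts scaled to library size with TMM factors. A count of 3, taken as the floor, corresponded to 5.97 to 14.7 CPM in the resting libraries and to 4.81 to 12.4 CPM in the proliferative ones. All 12 chondrocyte markers examined were detected, and 7 of them were called higher in the proliferative zone. Their summed level was 7411 to 19370 CPM in the resting libraries and 34480 to 59248 CPM in the proliferative libraries. Hypertrophic chondrocyte markers, 6 in all, summed to 694 to 1834 CPM in the resting and 588 to 1063 CPM in the proliferative libraries. Of 5 tested, 1 was called in each direction. The paper proposes that *Ihh*, *Mef2c* and *Pth1r* were higher in its proliferative samples because prehypertrophic chondrocytes were likely cut with them. Summed markers of the cell types examined outside cartilage were higher in the resting libraries. The 6 osteoclast markers summed to 1487 to 4520 CPM there against 14.4 to 439 CPM (4 of 4 tested were called, and 1 was at 0 in every proliferative library). The 7 osteoblast markers summed to 8628 to 36708 CPM against 619.9 to 3864 CPM (2 of 4 tested were called). The 7 neutrophil markers summed to 2979 to 3674 CPM against 0 to 522 CPM, with 2 of them at 0 in every proliferative library (5 of 6 tested were called). Of the tested erythroid markers 3 of 6 were called higher in the resting zone, of macrophage markers 2 of 3 and of endothelial markers 0 of 1. Over all tested genes that share was 11%. Adipocyte markers, of which 2 of 6 were at 0 in every library, summed to 24.3 to 107.8 CPM against 0 to 5.14 CPM. In such bulk samples, fewer cells of a type and less RNA per cell cannot be told apart.

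The strand on which reads were counted bears on every level given here. Whether reads were counted by strand is not given in the sources used here, so counts were set side by side, after the data were seen, for 371 pairs of a protein-coding gene and an annotated antisense gene that overlaps its exons on the other strand (at least 100 counts per pair). The antisense gene had the higher count in 176 pairs (47.4%). In the 30 pairs whose antisense exons lie at least 90% within the coding exons, it was higher in 21, with 57781 counts on the antisense genes and 7766 on the coding genes. In the female libraries 18683 counts fell on *Tsix* and 1367 on its opposite-strand partner *Xist*, the RNA that female cells make from the inactive X chromosome, and in the male libraries 15 and 1. Counts listed for a gene may therefore come in part or wholly from the strand opposite to its transcript, and the part of this in the members' values was not tested.

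Because the members most often named below share the SREBP factors as regulators, the 250 bases before the transcription start are shown for the called genes that have a window in the RefSeq promoter table (build GRCm38.p6). Capitals mark matches, on either strand, to the sterol regulatory element core (TCACNCCAC), the E-box (CACGTG) or the NF-Y box (CCAAT). Read from the other strand, the last of these is printed as ATTGG. Hmgcs1 lies at chr13:119690101-119690350 (plus strand), Cyp51 at chr5:4104698-4104947 (minus strand) and Insig1 at chr5:28071162-28071411 (plus strand).
Hmgcs1: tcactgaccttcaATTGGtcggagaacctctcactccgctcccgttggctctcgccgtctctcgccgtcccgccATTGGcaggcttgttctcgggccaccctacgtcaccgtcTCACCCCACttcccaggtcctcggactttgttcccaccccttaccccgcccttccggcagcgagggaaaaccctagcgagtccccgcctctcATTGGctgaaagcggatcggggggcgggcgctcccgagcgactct
Cyp51: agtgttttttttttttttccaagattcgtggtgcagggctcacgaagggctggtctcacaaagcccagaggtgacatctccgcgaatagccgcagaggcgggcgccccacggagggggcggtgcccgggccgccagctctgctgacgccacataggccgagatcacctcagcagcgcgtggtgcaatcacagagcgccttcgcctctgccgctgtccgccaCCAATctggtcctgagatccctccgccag
Insig1: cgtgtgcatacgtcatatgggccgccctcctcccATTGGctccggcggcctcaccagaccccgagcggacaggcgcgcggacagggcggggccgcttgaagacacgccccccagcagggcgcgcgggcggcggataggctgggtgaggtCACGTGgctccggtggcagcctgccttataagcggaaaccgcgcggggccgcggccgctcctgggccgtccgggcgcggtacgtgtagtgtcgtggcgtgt

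The sterol regulatory element core of *Hmgcs1* began 137 bases before the start site, and the E-box of *Insig1* 101 bases before it. Windows of 300 bases, reaching 50 bases past the start, were found for 27 of the 33 members. The sterol regulatory element core was present in 2 of these 27 (7.41%, *Hmgcs1* and *Acsl1*), against 1.44% of all genes with a window. The E-box was present in 5 (18.5%, *Hsd17b7*, *Insig1*, *Dhcr7*, *Sc5d* and *Elovl5*), against 8.09% of all genes. The NF-Y box was the most frequent, in 22 (81.5%) against 41.1% of all genes. None of the 3 motifs contains another. *Fads1*, *Fdft1*, *Fdps*, *Scd1*, *Scd2* and *Sqle* had no entry in the table.

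To ask whether lipid synthesis differs between resting and proliferative chondrocytes, the zones were compared over all genes with edgeR's quasi-likelihood test. A gene was called at a Benjamini-Hochberg adjusted p below 0.01 and a log2 fold change (resting over proliferative) beyond 1 in either direction. Of the 33 members, 16 passed the filter on low counts and 5 of these were called. *Hmgcs1*, *Cyp51*, *Insig1* and *Scd2* were higher in the proliferative zone, where 6.93% of the 3793 tested genes were called. *Fdft1* was the only member called higher in the resting zone, where 11% of tested genes were called. Among the 11 members tested and not called, the log2 fold change was below 0 in 10. A filter that keeps a gene on account of the group where it is high favors a difference, so these counts describe the members that passed and not the whole set.

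**Figure D1:**
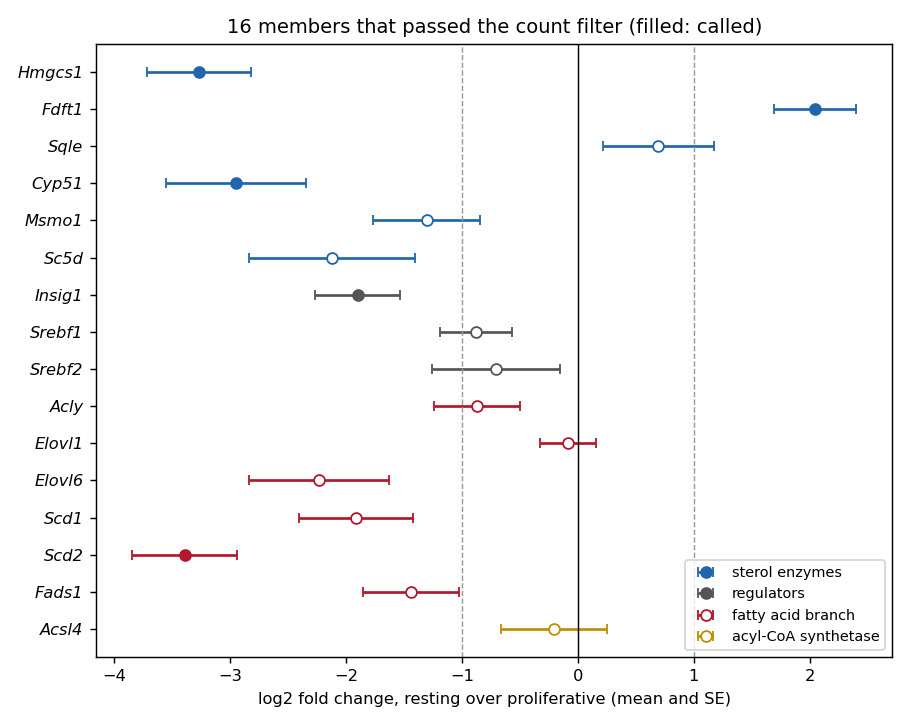
Log2 fold change (resting over proliferative, x axis) of the 16 members that passed the count filter, with the standard error as bars, filled where the gene was called. Dashed lines mark a log2 fold change of 1 in either direction. *Scd2* (-3.39) and *Hmgcs1* (-3.27) lie farthest to the left and *Fdft1* (2.05) alone beyond the right-hand line.

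Among the sterol enzymes, *Hmgcs1* encodes the cytosolic synthase that condenses acetoacetyl-CoA with acetyl-CoA early in the mevalonate pathway. Its level was 18.2, 31.7, 17.9 and 4.91 CPM in the resting zone of mice 1, 2, 6 and 13, and 179, 166, 117 and 286 CPM in their proliferative zone. Every proliferative library lay above every resting library, and the lowest and the highest of all 8 values came from the same animal, mouse 13. The gene (chromosome 13, 119690379 to 119708260, plus strand) was 9.63-fold higher in the proliferative zone (log2 fold change -3.27, SE 0.45, edgeR adjusted p = 0.00033). Of its exonic bases, 12.1% lie opposite the antisense gene *Gm48342*.

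*Cyp51* encodes the demethylase that acts on lanosterol, the first step after the ring system has formed. It had 3.04, 0, 11.9 and 9.81 CPM in the resting libraries and 44.7, 53.1, 41.6 and 70.5 CPM in the proliferative libraries of mice 1, 2, 6 and 13. The zones did not overlap, but the resting values rest on only 9 counts in all. The gene (chromosome 5, 4081145 to 4104746, minus strand) was 7.70-fold higher in the proliferative zone (log2 fold change -2.94, SE 0.60, edgeR adjusted p = 0.00292). The call was lost when the resting library of mouse 1 (adjusted p = 0.0127) or the proliferative library of mouse 2 (0.0102) or mouse 13 (0.0107) was left out, with the log2 fold change between -2.998 and -2.75. Without the resting library of mouse 6 it was called, at a log2 fold change of -3.74. Its exons share 166 bases with *Akap9* on the opposite strand, which held 86 counts and did not pass the filter. The mean of *Akap9* was also lower in the resting zone (11.3 ± 13.3 against 40.8 ± 21.4 CPM, SD, n = 4). The part of *Akap9* reads in the *Cyp51* counts was not tested.

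**Figure D2:**
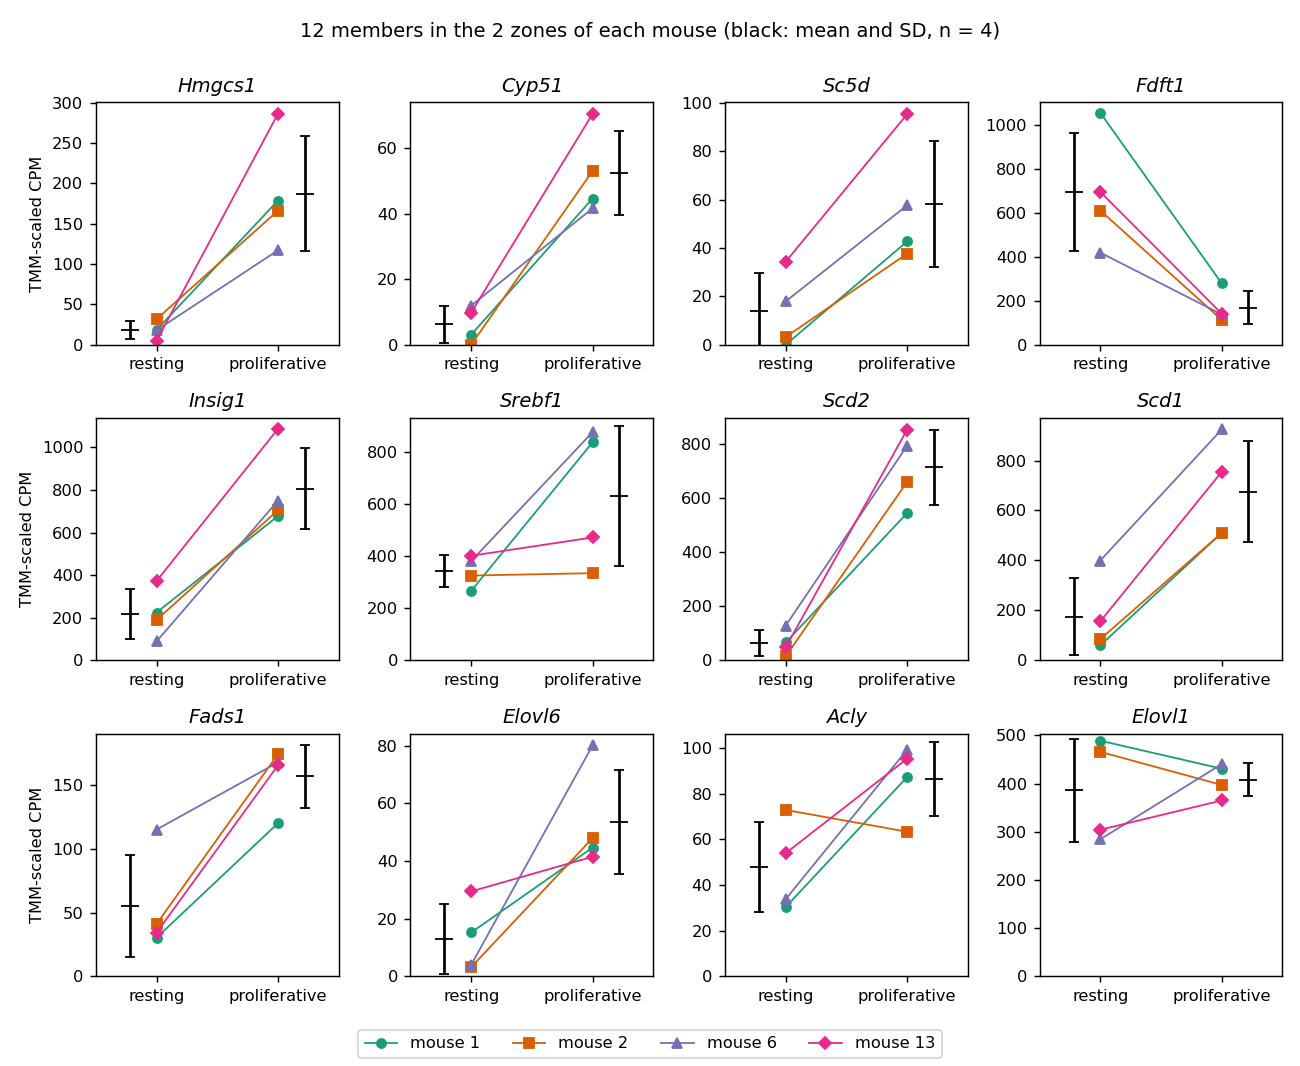
TMM-scaled CPM (y axes, from 0) of 12 members in the resting and proliferative library of each mouse, joined by a line, with the mean and SD of each zone in black (SD bars are clipped at 0). Values are higher in the proliferative zone in all 4 mice for *Hmgcs1*, *Cyp51*, *Sc5d*, *Insig1*, *Srebf1*, *Scd2*, *Scd1*, *Fads1* and *Elovl6*, lower in all 4 for *Fdft1*, and mixed for *Acly* and *Elovl1*.

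*Fdft1*, the squalene synthase that commits farnesyl diphosphate to sterols, went the other way. Its level was 1057, 612, 419.8 and 697 CPM in the resting zone of mice 1, 2, 6 and 13 and 279.6, 113, 138 and 141 CPM in the proliferative zone. The zones did not overlap, and within each zone mouse 1 had the highest value. The gene (chromosome 14, 63145150 to 63179578, minus strand) was 4.13-fold higher in the resting zone (log2 fold change 2.05, SE 0.35, edgeR adjusted p = 0.00105).

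The annotation places 774 bases of the *Fdft1* exons (18.3%) under those of *Ctsb*, a lysosomal protease gene on the opposite strand. *Ctsb* had 237, 225, 213 and 157 CPM in the resting libraries and 56.3, 17.1, 17.6 and 24.9 CPM in the proliferative libraries, and was also called higher in the resting zone (log2 fold change 2.84, SE 0.41, edgeR adjusted p = 0.000394). The count of *Fdft1* over that of *Ctsb* was 1.97 to 4.46 in the resting libraries and 4.97 to 7.82 in the proliferative libraries. A further 9.38% of the 50-base windows of *Fdft1* occur also in the pseudogene *Gm6781*. Given the strand counts above, the counts listed for *Fdft1* may be reads of *Ctsb* transcripts. Their part in the *Fdft1* result was not tested, so the direction of *Fdft1* holds for the counts as listed.

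**Figure D3:**
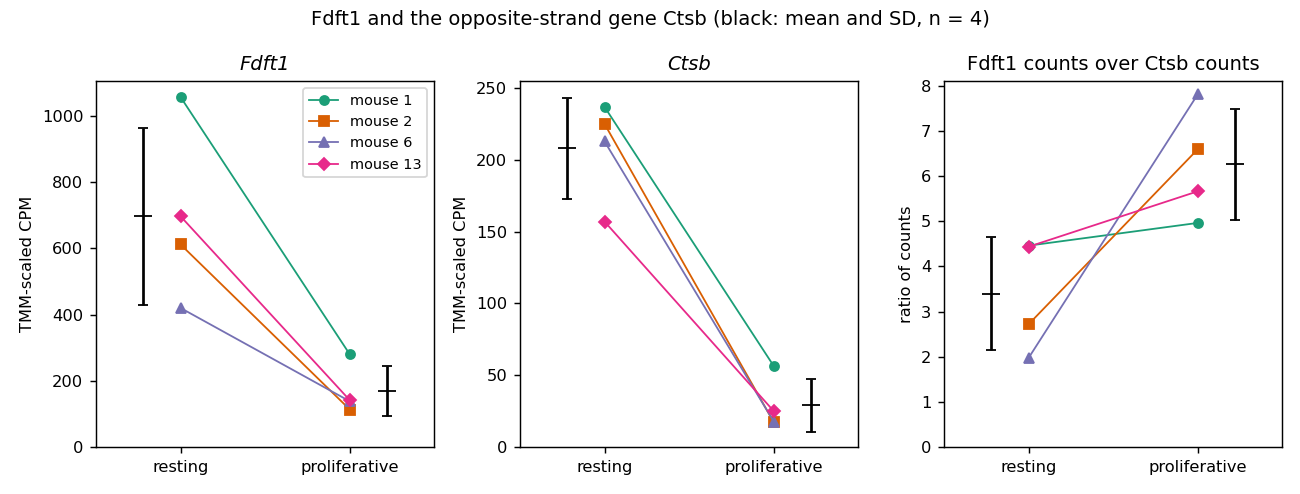
TMM-scaled CPM of *Fdft1* (left) and *Ctsb* (middle) and the ratio of their counts (right) in the resting and proliferative library of each mouse, with the mean and SD of each zone in black. Both genes fall from the resting to the proliferative zone in all 4 mice, while the ratio is 1.97 to 4.46 in the resting libraries and 4.97 to 7.82 in the proliferative libraries.

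The other sterol enzymes that passed the filter were not called. *Sc5d*, a desaturase near the end of the pathway, had 0, 3.17, 17.9 and 34.4 CPM in the resting libraries and 42.7, 37.7, 57.7 and 95.4 CPM in the proliferative libraries of mice 1, 2, 6 and 13 (log2 fold change -2.12, SE 0.72, edgeR adjusted p = 0.0397). It was called with the likelihood ratio test (adjusted p = 0.00574) and in the second fit (0.00164), where 9 of 13 alternatives kept the call. With single libraries left out its adjusted p ranged from 0.0197 to 0.0932, and its log2 fold change was -2.81 without the resting library of mouse 13. *Msmo1*, the C4 sterol methyl oxidase, had 6.34 to 27.9 CPM against 39.4 to 58.1 CPM (log2 fold change -1.30, SE 0.46, edgeR adjusted p = 0.0465). The values of *Sc5d* and *Msmo1* did not overlap between the zones. *Sqle*, the squalene epoxidase that follows *Fdft1* and is rate-limiting in the later pathway, had 103, 22.2, 43.8 and 103 CPM in the resting libraries and 46.6, 49.6, 36.8 and 29.0 CPM in the proliferative libraries. Its values overlapped and its ratio was above 0 on the log2 scale in 3 of 4 mice (log2 fold change 0.69, 95% interval -0.35 to 1.73, edgeR adjusted p = 0.311).

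The remaining 10 sterol enzymes had too few counts for the filter, between 13 and 81 over the 8 libraries. They were examined in a second fit that kept each of the 17492 genes with a count, in which 2.68% of genes were called higher in the proliferative zone and 4.74% higher in the resting zone. Over the genes tested in both, this fit moved the median log2 fold change from 0.08 to -0.15, and its values should be read against that shift. *Fdps*, *Lss* and *Dhcr7* were called.

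*Fdps*, which makes farnesyl diphosphate, had 0, 2, 0 and 0 counts in the resting libraries and 11, 12, 28 and 7 counts in the proliferative libraries. The pooled CPM ratio, proliferative over resting, was 19.9 with a 95% counting interval of 5.28 to 169 (edgeR adjusted p = 0.000279 in the second fit). Both resting counts came from mouse 2, so without that library the resting zone is at 0 and no fold is given. *Fdps* shares 26.2% of its 50-base windows with other annotated genes, mainly *Gm43738*, so its counts are uncertain. *Lss*, which closes squalene epoxide into lanosterol, had 1, 1, 2 and 0 counts in the resting libraries and 17, 24, 9 and 8 counts in the proliferative libraries (second fit log2 fold change -3.47, SE 0.86, edgeR adjusted p = 0.00105). Part of it (3.5% of its exonic bases) lies opposite 4930483K19Rik, which had no count in the resting libraries and 93 in the proliferative libraries, and the part of its reads was not tested. The call for *Lss* was lost without the proliferative library of mouse 2 (adjusted p = 0.0138). *Dhcr7*, the last reductase of the pathway, had 5, 0, 1 and 0 counts in the resting libraries and 9, 5, 40 and 15 in the proliferative libraries (second fit log2 fold change -3.17, SE 0.77, edgeR adjusted p = 0.000778). Its zones overlapped in CPM, and the call was lost without the proliferative library of mouse 6 (adjusted p = 0.0451) or mouse 13 (0.0102) and with DESeq2 (0.0225). Without the resting library of mouse 1, which held 5 of the 6 resting counts, the fitted log2 fold change was -5.06.

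*Acat2*, *Nsdhl* and *Hsd17b7* were lower in the resting zone in all 4 mice, although not called. *Nsdhl* had 3 counts in the resting libraries and 22 in the proliferative libraries (pooled CPM ratio 5.04, counting interval 1.52 to 26.3), and *Hsd17b7* had 2 and 20 (6.88, counting interval 1.67 to 60.7). *Acat2*, with 22 and 59 counts, shares 39.1% of its windows with *Acat3*. *Mvk*, *Pmvk*, *Mvd* and *Ebp* had log2 ratios on both sides of 0 among the mice, and for *Mvd* and *Ebp* the mean was higher in the resting zone (6.12 against 2.83 CPM and 23.7 against 12.1 CPM). These intervals, like the floor, cover counting error only.

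Of the regulators, *Insig1*, itself induced by SREBP, was the one called. Its level was 225, 190.2, 89.5 and 373 CPM in the resting zone of mice 1, 2, 6 and 13 and 678, 705, 749.7 and 1087 CPM in the proliferative zone. The zones did not overlap, and mouse 13 had the highest value in each. The gene (chromosome 5, 28071363 to 28078662, plus strand) was 3.72-fold higher in the proliferative zone (log2 fold change -1.90, SE 0.37, edgeR adjusted p = 0.00202). It stayed called in all 16 alternative settings, with the log2 fold change between -2.29 and -1.64.

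The genes of the SREBP factors were tested and not called. *Srebf1* had 267, 326, 382 and 402 CPM in the resting libraries and 839, 336, 878 and 473 CPM in the proliferative libraries of mice 1, 2, 6 and 13. It was lower in the resting zone in all 4 mice, by a log2 ratio of -1.63 and -1.19 in mice 1 and 6 but only -0.04 and -0.23 in mice 2 and 13. Its exons share 109 bases (1.9%) with *Rai1* on the opposite strand, which held 164 counts against 1755 for *Srebf1*. The part of *Rai1* reads in the *Srebf1* counts was not tested. The test of *Srebf1* missed the threshold (log2 fold change -0.88, SE 0.31, edgeR adjusted p = 0.0493). In the second fit its log2 fold change was -1.12 (edgeR adjusted p = 0.00409) and it was called, past the fold threshold by less than the shift of that fit. That call was lost in 7 of 13 alternatives: with the mouse as a replicate block (adjusted p = 0.0174), the likelihood ratio test, DESeq2 and RLE factors, and without the resting library of mouse 1 or the proliferative library of mouse 1 or mouse 6. *Srebf2*, with 86 counts, ranged from 12.2 to 27.9 CPM in the resting libraries and from 9.61 to 58.1 CPM in the proliferative libraries (log2 fold change -0.71, 95% interval -1.91 to 0.49, edgeR adjusted p = 0.370).

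Of the 5 desaturases in the fatty acid branch, 3 passed the filter and 1 was called. *Scd2*, a stearoyl-CoA desaturase that makes monounsaturated fatty acids, had 66.8, 15.8, 129 and 49.1 CPM in the resting zone of mice 1, 2, 6 and 13 and 546, 661, 794.5 and 854 CPM in the proliferative zone. The zones did not overlap, and the resting library of mouse 6 was the highest of its zone. The gene (chromosome 19, 44293674 to 44306864, plus strand) was 10.5-fold higher in the proliferative zone (log2 fold change -3.39, SE 0.45, edgeR adjusted p = 0.000294) and was the only gene of this branch called. Without the resting library of mouse 6 its log2 fold change was -4.04.

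*Scd1*, its close relative, had 60.8, 85.6, 399.9 and 157 CPM in the resting libraries and 511, 510.2, 924 and 755 CPM in the proliferative libraries. Again the zones did not overlap and mouse 6 was highest in both. Without a block for the mouse, *Scd1* missed the threshold (log2 fold change -1.91, SE 0.49, edgeR adjusted p = 0.0104). With the mouse as a replicate block it was called (log2 fold change -2.23, adjusted p = 0.00068), which raised the called members of the branch from 1 to 2. It was also called without the resting library of mouse 6 (log2 fold change -2.79, adjusted p = 0.000301) or the proliferative library of mouse 1 (0.0078), with the likelihood ratio test (0.00123), DESeq2 (0.000969), RLE factors (0.00883), upper quartile factors (0.00666) or at least 10 counts in every library (0.00759), and in the second fit (3.67e-09). *Scd1* and *Scd2* share under 5% of their 50-base windows with each other or with *Scd3* and *Scd4*, to which 3 and 2 counts fell in all.

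*Fads1*, the delta-5 desaturase of polyunsaturated fatty acids, had 30.4, 41.2, 115 and 34.4 CPM in the resting libraries and 120.4, 175, 168 and 166 CPM in the proliferative libraries (log2 fold change -1.44, SE 0.42, edgeR adjusted p = 0.0194). The highest resting value, from mouse 6, lay just under the lowest proliferative value, from mouse 1. Without the resting library of mouse 6, *Fads1* was called (log2 fold change -2.16, adjusted p = 0.000552), as it was with the likelihood ratio test (0.00457), DESeq2 (0.00552) and in the second fit (0.000706, lost there without the resting library of mouse 1). *Fads2* and *Fads3*, with 28 and 48 counts, did not pass the filter and had log2 ratios on both sides of 0 among the mice.

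Elongation was mixed. *Elovl6*, which extends palmitate to stearate, had 15.2, 3.17, 3.98 and 29.4 CPM in the resting libraries and 44.7, 47.9, 80.1 and 41.5 CPM in the proliferative libraries (log2 fold change -2.23, SE 0.60, edgeR adjusted p = 0.0138). The zones did not overlap. *Elovl6* was called with the likelihood ratio test (adjusted p = 0.000577), DESeq2 (0.00327), upper quartile factors (0.00794) and in the second fit (0.00109, lost there without the proliferative library of mouse 6), and without the resting library of mouse 13 (0.00601, log2 fold change -2.90). *Elovl1*, which acts on very long saturated chains, had 489, 466, 284 and 304 CPM in the resting libraries and 431, 397, 441 and 365 CPM in the proliferative libraries. Its difference was close to 0 with a narrow interval (log2 fold change -0.08, 95% interval -0.61 to 0.44, edgeR adjusted p = 0.834), on 1330 counts. Its exons share 53 bases (1.9%) with *Cdc20* on the opposite strand, which held 30 counts. The part of *Cdc20* reads in the *Elovl1* counts was not tested. *Elovl5*, which lengthens polyunsaturated chains, had 78 counts and a mean of 24.2 CPM against 21.4 CPM.

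Of the synthesis genes, *Acly*, which supplies cytosolic acetyl-CoA, had 30.4, 72.9, 33.8 and 54.0 CPM in the resting libraries and 87.4, 63.3, 99.3 and 95.4 CPM in the proliferative libraries. It was lower in the resting zone in 3 of 4 mice (log2 fold change -0.87, 95% interval -1.67 to -0.06, edgeR adjusted p = 0.0972). *Fasn*, the fatty acid synthase itself, had 1, 2, 2 and 3 counts in the resting libraries and 7, 17, 17 and 8 in the proliferative libraries, lower in all 4 mice, and was not called in the second fit (log2 fold change -2.16, SE 0.80, edgeR adjusted p = 0.0551). *Acaca*, the acetyl-CoA carboxylase, had 58 counts and shares 30.4% of its windows with *Gm5182* and others.

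The acyl-CoA synthetases, which activate fatty acids for use in lipids or oxidation, were not called. *Acsl4* had 15.8 to 100.2 CPM in the resting libraries and 53.9 to 103 CPM in the proliferative libraries (log2 fold change -0.21, 95% interval -1.20 to 0.79, edgeR adjusted p = 0.774). *Acsl3* was lower in the resting zone in all 4 mice on 29 counts. *Acsl1* had 32 counts in the resting libraries and 13 in the proliferative libraries, higher in the resting zone in 3 of 4 mice (second fit log2 fold change 1.53, SE 0.80, edgeR adjusted p = 0.230).

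Over the whole set, the second fit called 12 of the 33 members higher in the proliferative zone and 1 higher in the resting zone. Of the 11840 genes in the authors' table it called 461 and 762. Of the 3793 genes that passed the filter it called 410 and 405. The members called higher in the proliferative zone numbered 11 with the mouse as a replicate block and 9 with DESeq2. They numbered 9 without the resting library of mouse 1 and 8 without the proliferative library of mouse 6. The 12 were *Hmgcs1*, *Fdps*, *Lss*, *Cyp51*, *Sc5d*, *Dhcr7*, *Insig1*, *Srebf1*, *Elovl6*, *Scd1*, *Scd2* and *Fads1*. In 13 members all proliferative libraries lay above all resting libraries, as in 7.36% of the genes in the authors' table, and in 1 member, *Fdft1*, the reverse held, as in 12.4%. In 18 members the resting value was the lower of the pair in all 4 mice, as in 12.5% of the genes in that table.

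**Figure D4:**
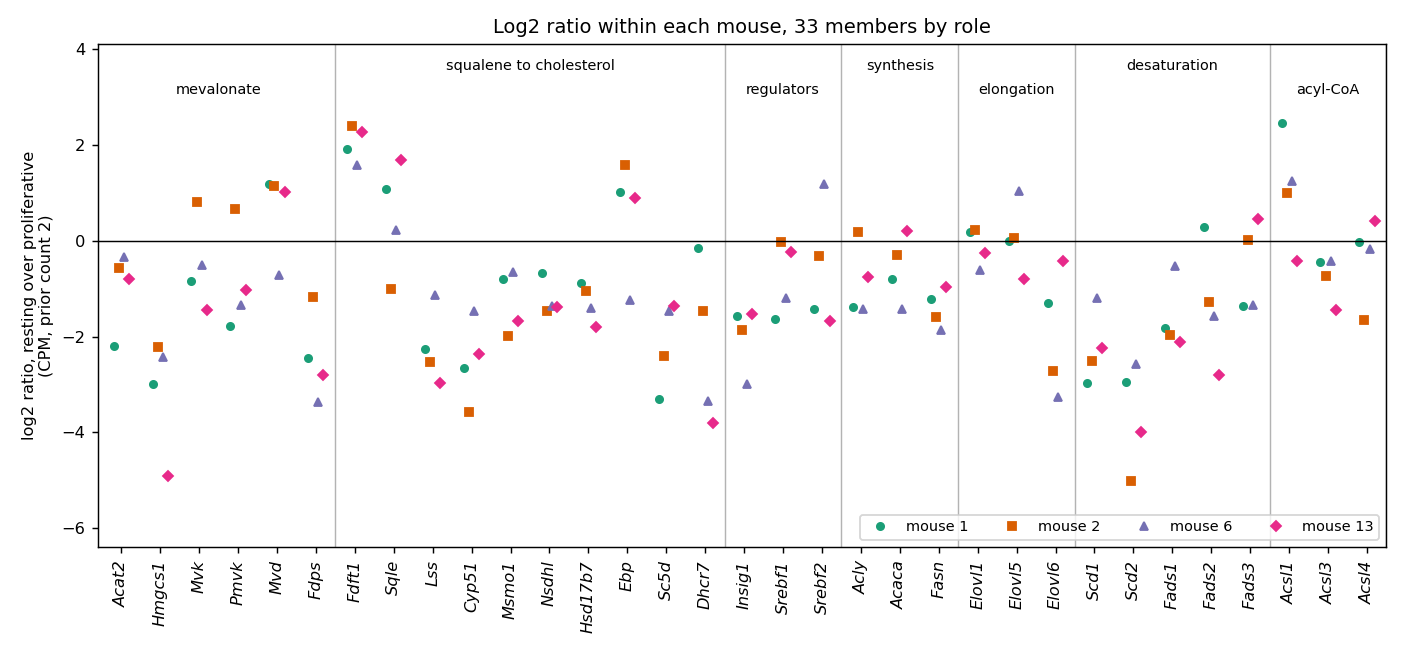
Log2 ratio of CPM (resting over proliferative, prior count of 2, y axis) of the 33 members in each of the 4 mice, ordered by role along the x axis. Most points lie below 0 in the mevalonate, squalene to cholesterol and desaturation groups, *Fdft1* lies above 0 in all 4 mice, and *Elovl1*, *Elovl5* and *Acsl4* have points on both sides of 0.

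The zones were paired within an animal, so ratios were also taken mouse by mouse. The median log2 ratio over the 33 members was -1.23, -1.05, -1.24 and -1.36 in mice 1, 2, 6 and 13. Over all genes in the authors' table it was 0.19, 0.06, 0.16 and 0.03. These medians describe the members and were not tested.

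The sterol enzymes and the fatty acid branch were then set side by side. The median log2 ratio of the 16 sterol enzymes was -0.87, -1.11, -1.29 and -1.42 in mice 1, 2, 6 and 13, and that of the 11 genes of the fatty acid branch -1.31, -1.27, -1.42 and -0.80. The difference, sterol minus fatty acid, was 0.44, 0.16, 0.13 and -0.61 (mean 0.03 ± 0.45 SD, n = 4 mice), so neither branch was lower than the other in every mouse. Over the members tested, the median log2 fold change was -1.71 in the sterol enzymes (-2.12 without *Fdft1*) and -1.68 in the fatty acid branch, beside 0.08 over all tested genes. Leaving out *Fdft1*, here and in the sums below, was chosen with its value known. By group, the mean over mice of the median log2 ratio was -1.84 for desaturation, -0.93 for synthesis, -0.25 for elongation, -1.05 for the mevalonate group and -1.27 for squalene to cholesterol. Over the tested members alone, the median log2 fold changes of these groups were -1.91, -0.87, -1.16, -3.27 (1 gene) and -1.30, so the order of the groups depends on which members are counted, and it was not tested.

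Chondrocyte markers moved in the same direction as the members. The log2 ratio of their summed level, resting over proliferative, was -2.17, -2.999, -0.95 and -2.01 in mice 1, 2, 6 and 13, against -1.23, -1.57, -1.64 and -1.81 for the summed level of the 15 sterol enzymes without *Fdft1* and -2.90, -3.24, -1.55 and -2.88 for *Scd1*, *Scd2* and *Fads1* together. With *Fdft1* included, the sum of all 16 sterol enzymes had no common direction, at 1273, 773, 591 and 918 CPM in the resting libraries and 784, 592, 671 and 917 CPM in the proliferative libraries. In a scaling chosen after the data were seen, the levels were then divided by the chondrocyte marker sum. This sum includes *Acan*, *Col2a1* and *Matn1*, which the paper reported as lower in resting chondrocytes, with in situ hybridization of *Col2a1* and *Matn1*. A level so scaled is therefore not a level per chondrocyte. So scaled, the sterol sum was higher in the resting zone in mice 1, 2 and 13 (log2 ratio 0.94, 1.43 and 0.19) and lower in mouse 6 (-0.69), and with *Fdft1* it was higher in all 4 mice (2.86, 3.38, 0.77 and 2.01). The sum of the 11 genes of the fatty acid branch was likewise higher in mice 1, 2 and 13 (0.89, 1.60 and 0.23) and lower in mouse 6 (-0.40). The sum of *Scd1*, *Scd2* and *Fads1*, which were chosen from that branch with their values known, was lower in all 4 mice (-0.73, -0.24, -0.60 and -0.88). *Scd2* alone, per 1000 CPM of chondrocyte markers, had 8.70, 2.14, 6.68 and 4.81 CPM in the resting libraries and 15.8, 11.2, 21.2 and 20.8 CPM in the proliferative libraries, with no overlap. *Hmgcs1* so scaled was lower in the resting zone in mice 1, 6 and 13 (log2 ratio -1.13, -1.75 and -3.86) and higher in mouse 2 (0.61). *Cyp51* so scaled had 0.395, 0, 0.616 and 0.961 CPM in the resting libraries and 1.30, 0.896, 1.11 and 1.72 CPM in the proliferative libraries of mice 1, 2, 6 and 13, lower in the resting zone in all 4 mice but with overlap between the zones. *Insig1* so scaled was lower in mouse 6 (-2.11) and higher in mice 1, 2 and 13 (0.57, 1.11 and 0.46). The part of cell composition in these results was not tested.

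**Figure D5:**
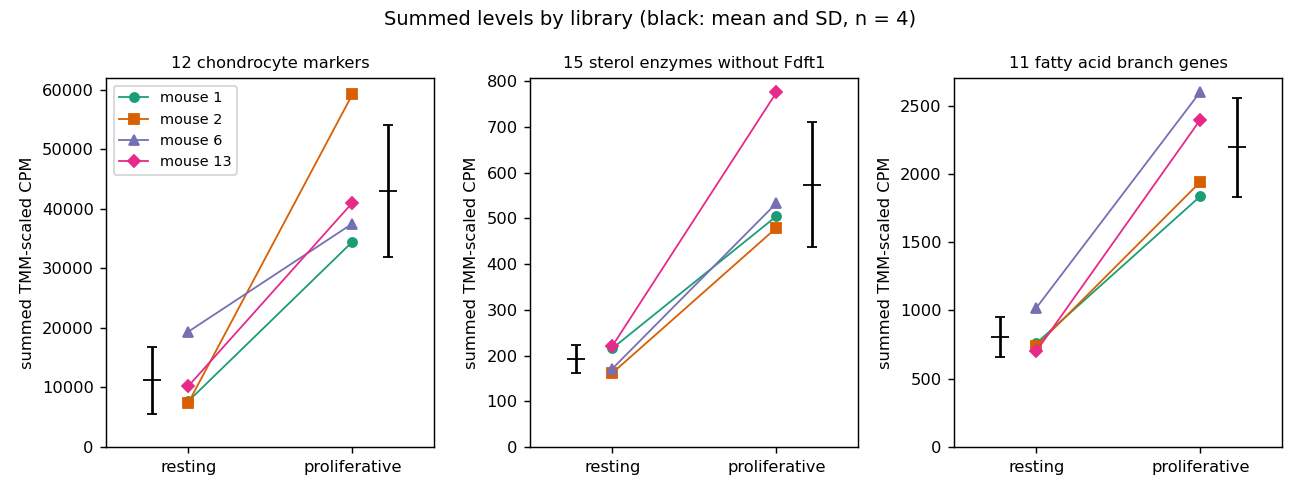
Summed TMM-scaled CPM (y axes, from 0) of 12 chondrocyte markers, of the 15 sterol enzymes without *Fdft1* and of the 11 genes of the fatty acid branch in each library, joined by mouse, with the mean and SD of each zone in black. All 3 sums are higher in the proliferative zone in all 4 mice, which does not hold for the sterol enzymes with *Fdft1* included (mean 889 CPM in the resting and 741 CPM in the proliferative libraries), and mouse 6 has the highest resting value of the chondrocyte markers (19370 CPM) and of the fatty acid branch.

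Related lipid genes outside the set were read from 4 lists. Of 26 other lipid synthesis genes, 5 were tested and 1 was called, higher in the proliferative zone, as were 6.93% of all tested genes. The median log2 fold change of the 5 was 0.28, beside 0.08 over all tested genes. It was *Me1*, the malic enzyme that supplies NADPH for lipid synthesis, with 10.4 ± 15.7 CPM in the resting libraries and 173 ± 51.8 CPM in the proliferative libraries (SD, n = 4, log2 fold change -3.74, SE 0.67, edgeR adjusted p = 0.00128).

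Of 22 genes of glycerolipid synthesis and lipid droplets, 7 were tested (median log2 fold change -0.47) and 1 was called higher in the proliferative zone, beside the same 6.93%. It was *Lpin3*, a phosphatidate phosphatase (12.3 ± 6.89 against 106 ± 15 CPM, SD, n = 4, log2 fold change -3.12, SE 0.44, edgeR adjusted p = 0.000393). Of 17 genes of sterol uptake, storage and efflux, 5 were tested and 2 were called, both higher in the resting zone, as were 11% of all tested genes (median log2 fold change of the 5, 0.995). They were *Apoe*, the carrier of lipoprotein cholesterol (276 ± 85.4 against 6.59 ± 6.68 CPM, SD, n = 4, log2 fold change 5.17, SE 0.52, edgeR adjusted p = 8.74e-05), and *Npc2*, which carries cholesterol out of lysosomes (348 ± 70.8 against 56.3 ± 26.3 CPM, SD, n = 4, log2 fold change 2.60, SE 0.33, edgeR adjusted p = 0.000209). Both are also abundant in macrophages, whose 8 markers summed to 959 to 1084 CPM in the resting libraries and 193 to 483 CPM in the proliferative libraries, and the part of these cells was not tested. Of 24 genes of fatty acid oxidation, 2 were tested and 1 was called higher in the resting zone, beside the same 11%. It was *Acaa2*, a mitochondrial thiolase (35.3 ± 15.2 against 3.37 ± 2.93 CPM, SD, n = 4, log2 fold change 3.12, SE 0.59, edgeR adjusted p = 0.00184). The other, *Hadh*, a dehydrogenase of mitochondrial beta-oxidation, was not called and had the opposite sign, without overlap between the zones (20.8 ± 8.62 against 67.2 ± 25.4 CPM, SD, n = 4, log2 fold change -1.65, SE 0.45, edgeR adjusted p = 0.0144).

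Each sex had 2 mice. The difference of the zone effect between males and females was not called for any of the 16 tested members (edgeR interaction test, lowest adjusted p = 0.734), and 1 of them, *Sc5d*, had an unadjusted p below 0.05.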

How the data were processed

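Resting and proliferative zone libraries of 4 mice (8 in all) were analysed. Reads were trimmed (BBDuk), aligned to GRCm38 (HISAT2 2.1.0) and counted per gene (HTSeq 0.11.2) by the authors, who deposited raw counts for 43629 genes. RNA had been amplified in 2 rounds of in vitro transcription, so counts are not independent molecules. A second deposited table holds the authors' normalized values and statistics (fold changes, scores and p-values). Its gene names were used, and its list of 11840 genes set which members were kept and the genes behind the shares and medians given for that table. Its values were not used, as they repeat the authors' own comparison. All tests started from the counts. The strand setting of the counting is not given in the sources used here.

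Genes were filtered with edgeR 4.0.16 in R 4.3.3 (minimum count 10, minimum total 15), normalized by TMM and tested with the quasi-likelihood test with zone as the only term. The common biological coefficient of variation was 0.380. P-values were adjusted over all tested genes by the Benjamini-Hochberg method. Log2 ratios within a mouse used a prior count of 2. Same-numbered libraries came from the same animal by the labels. Their deviations from the zone means correlated at 0.195, 0.0104, 0.144 and 0.0635 in mice 1, 2, 6 and 13. Mean correlations with other mice were -0.0624 to -0.00499. Centering on the zone means forces these below a positive value within the mouse, so the contrast is no separate support for the pairing.

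Alternatives were the likelihood ratio test, DESeq2 1.42.0, RLE and upper quartile factors, other count filters, the mouse as a block, an adjusted p below 0.05 and each library left out. The fits were tested on simulated data. By rule, values were given for all called members, for other members with at least 100 counts or on the same side in all 4 mice, and for the called genes of the related lists with the lowest p. The remaining members, *Acat3*, *Hadh*, *Ctsb* and the other opposite-strand partners were named outside that rule, after their values were seen. The members, lists and tests were chosen with earlier results of these data known. Exon overlaps and shared 50-base windows were read from the GENCODE annotation of GRCm38, and promoters from RefSeq.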

Additional observations from a re-analysis of the deposited data

Results flagged for a closer look

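Among 38 groups of 4 libraries (19 members in 2 zones), 6 held a value set apart from the other 3 by more than Dixon's 95% critical value. That critical value assumes normally distributed values, and many of these rest on low counts. The groups also share the same libraries, so the number is not set against a chance rate. In the resting zone the values set apart were *Fdps* in mouse 2 (6.34 CPM, against 0 in the others), *Dhcr7* in mouse 1 (15.2 CPM), both on 5 counts or fewer, and *Fads1* in mouse 6 (115 CPM). In the proliferative zone they were *Fdft1* in mouse 1 (279.6 CPM), *Elovl6* in mouse 6 (80.1 CPM) and *Fads1* in mouse 1 (120.4 CPM, the lowest of its zone). *Elovl1* had opposite signs in the sexes, with a mean log2 ratio, resting over proliferative, of 0.20 in the 2 males and -0.44 in the 2 females. The edgeR interaction test gave this difference an adjusted p of 0.836.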

How the results depend on the processing

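The count of members called higher in the proliferative zone was 4 and rose to 8 with the likelihood ratio test, 7 with DESeq2, 9 at an adjusted p below 0.05 and 12 with all genes of at least 1 count. Over all tested genes the same count was 263, and 386, 352, 427 and 468 under these alternatives, the last among 17492 genes in place of 3793. It fell to 2 when every library had to hold at least 10 counts, which left 6 members, and ranged from 3 to 7 as single libraries were left out (7 without the resting library of mouse 6). *Fdft1* was the 1 member called higher in the resting zone under all 16 alternatives. Of the sterol enzymes 3 were called, 5 at an adjusted p below 0.05, 7 with all genes and 1 with the strict filter, and 2 to 4 with a library left out. Of the fatty acid branch 1 was called, 4 with the likelihood ratio test, DESeq2, all genes or an adjusted p below 0.05, 3 with upper quartile factors, 2 with RLE factors, 2 with the replicate block, and 1 to 3 with a library left out. The block left the other calls in place, with 5 members called higher in the proliferative zone.

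The strict filter kept only *Fdft1* of the sterol enzymes, so their median became 2.06, and that of the fatty acid branch -0.86. With a library left out the medians ranged from -2.45 to -1.33 and from -2.02 to -1.45. The second fit called 2 to 3 of the members that the filter had removed. The members higher in the resting zone without overlap numbered 1 to 2 with a library left out. With a library left out, the log2 fold change ranged from -0.26 to 0.023 for *Elovl1*, which turned positive without the resting library of mouse 6, and from -0.52 to 0.10 for *Acsl4*, which did so without that of mouse 2. Neither was called. Of 286 comparisons of a single member with an alternative, 251 kept their call and direction, 26 gained a call, 7 lost it and 2 changed sign. Upper quartile factors moved the median of all tested genes from 0.08 to -0.14. All of these alternatives use the same counts, so none bears on the strand of the reads. Members at a few counts per library are limited by depth, and their intervals cover counting error only.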

Other observations

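*Acat3*, the close copy of *Acat2*, held 6073 counts over the 8 libraries, with 746 to 1737 CPM in the resting zone and 2153 to 2418 CPM in the proliferative zone, and no overlap between them (log2 fold change -0.83, SE 0.25, edgeR adjusted p = 0.0251). Its exons share 571 bases with *Tcp1* on the opposite strand, which held 284 counts. The part of *Tcp1* transcripts in the *Acat3* counts was not tested.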
